A study of Danio rerio with 6 samples.

Results

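The cone opsin genes encode the light-sensitive receptors of cone photoreceptors, and on this array they were represented by 6 probe sets among 15502 compared, or by 6 of 8793 named genes. They were taken by name, with earlier results of these data known, as all probe sets whose gene symbol on the platform begins with opn1. These were *opn1sw1* (ultraviolet), *opn1sw2* (blue), *opn1mw1*, *opn1mw2* and *opn1mw4* (green) and *opn1lw1* (red), with 1 probe set each. Of 8 opn1 genes in the RefSeq annotation of zebrafish (assembly GRCz12tu), 6 thus had a probe set, while the green opsin *opn1mw3* and the red opsin *opn1lw2* carried none under their own symbol. Transcripts of such close paralogs may also bind the probes of their relatives, and the probe sequences were not examined here.

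The RNA came from retinal cells of adult Tg(3.2TalphaCP:EGFP) zebrafish, in which a promoter fragment of the cone transducin α gene drives EGFP in cones. All fish carried the transgene and were untreated. Pooled retinae were dissociated and sorted, and the comparison was of 3 GFP-positive with 3 GFP-minus samples, each hybridized to 1 Affymetrix array. Both populations carry cone cells as their tissue label, but GFP-minus cells are by name the fraction without EGFP. They were therefore taken as the remaining cells of the neural retina, from which pigment epithelium and lens had been dissected away.

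Vertebrate cones detect light with an opsin bound to a retinal chromophore, and the opsin protein sets the wavelength a cone responds to. In zebrafish, ultraviolet, blue, green and red cones form a regular mosaic, and each mature cone generally relies on opsin of a single spectral class. A photon changes the shape of the opsin, which activates transducin and a phosphodiesterase, and the cation channels of the outer segment close. In the RefSeq gene order, *opn1sw2* lies next to *opn1lw1* and *opn1lw2* on chromosome 11, *opn1mw1*, *opn1mw2*, *opn1mw3* and *opn1mw4* follow one another on chromosome 6, and *opn1sw1* lies alone on chromosome 4.

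The deposited values are log2 expression levels, and dim probe sets share a floor of 2.17 at which no level is resolved. Of all probe sets 7.68% were called by limma at a Benjamini-Hochberg adjusted p under 0.05, with 463 (2.99%) higher in GFP-positive cells and 727 (4.69%) lower. The higher ones made up 38.9% of the calls, against 84.8% with median centring of the arrays and 5.66% after scaling to the hybridization controls. Those scalings moved the median difference of all probe sets by 0.225 and by -0.737 on the log2 scale. Most leukocyte and erythrocyte genes were higher in GFP-minus cells: 14 of 16 measured leukocyte genes and 7 of 10 erythrocyte genes were called lower in GFP-positive cells. Which cells these transcripts came from was not tested. Of the other lists of retinal cell types, 1 of 10 rod genes and 4 of 12 Müller glia genes were called higher in GFP-positive cells. For rods the median difference was 1.57, and 9 of 10 genes were higher at an unadjusted p under 0.05, also 9 without overlap. Of all probe sets 13.9% were higher without overlap, while no share at an unadjusted p is given here. Lower ones were 1 of 12 Müller glia, 1 of 5 bipolar, 3 of 15 amacrine and horizontal and 2 of 8 ganglion cell genes, and 0 of 5 pigment epithelium genes were called (1 higher at an unadjusted p under 0.05). Fewer cells of a type and less RNA per cell cannot be told apart in such samples.

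All 6 cone opsin probe sets were far higher in GFP-positive than in GFP-minus cells, and in none of them did the arrays of both populations overlap. Over all probe sets, 13.9% had every GFP-positive array above every GFP-minus array, and 13.0% had every one below. The smallest distance between the lowest GFP-positive and the highest GFP-minus array was 3.76 on the log2 scale, for *opn1mw1*, and the largest was 5.89, for *opn1sw1*. Of the 6, 5 were called higher by limma, against 2.99% of all probe sets, and *opn1mw2* was not called.

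The ultraviolet opsin *opn1sw1* had log2 values of 13.38, 13.57 and 13.93 in GFP-positive replicates 1, 2 and 3, against 5.56, 4.00 and 7.49 in GFP-minus replicates 1, 2 and 3. Its GFP-positive SD of 0.28 was the smallest of the members, and its GFP-minus SD was 1.75 (n = 3 arrays each). The log2 difference amounted to 7.94, with a standard error of 0.96 and a 95% confidence interval of 5.39 to 10.50 (limma adjusted p = 0.0194). This was the second largest positive difference on the array.
The blue opsin *opn1sw2* lay at 13.41, 12.90 and 13.68 in GFP-positive samples, against 6.39, 4.86 and 8.30 in GFP-minus samples. Its difference was 6.81 (95% confidence interval 4.26 to 9.36, standard error 0.96, limma adjusted p = 0.0275). The GFP-minus arrays again spread far more than the GFP-positive ones (GFP-positive SD 0.40, GFP-minus SD 1.72, n = 3 each).

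The 3 measured green opsin genes had unlike estimates, but their 95% confidence intervals overlapped. The gene *opn1mw1* had log2 values of 9.87, 9.32 and 8.79 in GFP-positive samples, against 3.71, 3.31 and 5.03 in GFP-minus samples. Its difference of 5.31 was the smallest of the members and had the smallest standard error (95% confidence interval 3.80 to 6.82, standard error 0.57, limma adjusted p = 0.0148). Its GFP-minus values lay only 1.14 to 2.86 above the lowest value of the array, so this small error was not read as precision.
The gene *opn1mw2* lay at 12.86, 12.27 and 12.47 in GFP-positive samples, against 3.20, 2.39 and 8.20 in GFP-minus samples. In GFP-minus replicate 2 it was 0.22 above the lowest value of the array, while in GFP-minus replicate 3 it was 6.03 above it. Its difference of 7.94 was about as large as that of *opn1sw1*, yet with a standard error of 1.72 and a 95% confidence interval of 3.38 to 12.50 it was not called (limma adjusted p = 0.0748, unadjusted p = 0.00735). The GFP-minus arrays had an SD of 3.15, against 0.30 in GFP-positive arrays (n = 3 each), and the fit pools both.
The gene *opn1mw4* lay at 12.58, 11.58 and 12.37 in GFP-positive samples, against 4.65, 2.74 and 6.51 in GFP-minus samples. Its difference was 7.54 (95% confidence interval 4.72 to 10.37, standard error 1.06, limma adjusted p = 0.0275).

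The red opsin *opn1lw1* lay at 12.78, 12.20 and 12.93 in GFP-positive samples, against 4.77, 3.29 and 7.84 in GFP-minus samples. Its difference was 7.34 (95% confidence interval 3.95 to 10.73, standard error 1.28, limma adjusted p = 0.0452), the weakest of the 5 calls. For each member, the exact permutation test of 3 against 3 arrays gave p = 0.1 (two-sided), the smallest p this design allows.

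**Figure D1:**
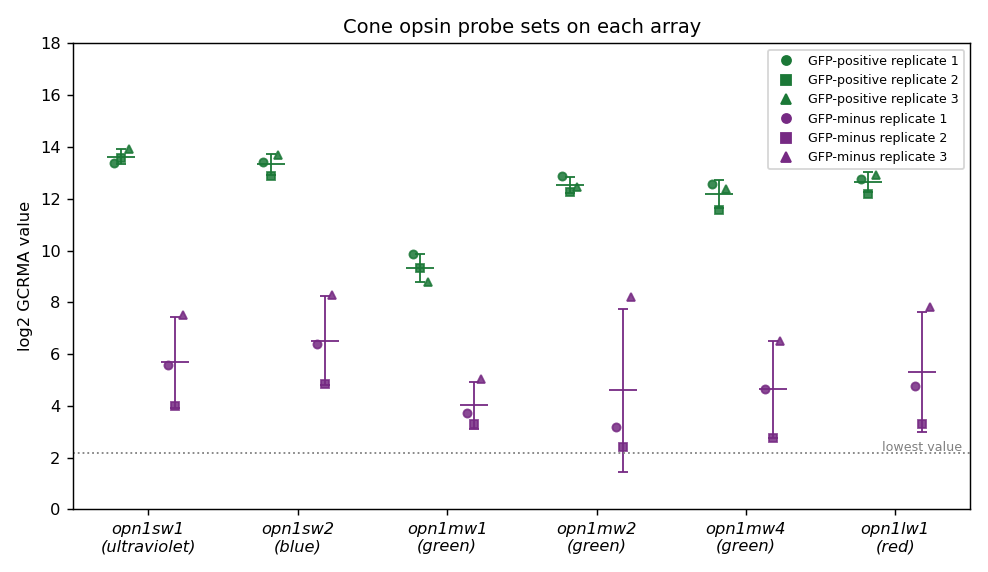
Log2 GCRMA values of the 6 cone opsin probe sets (vertical axis) on each array, with GFP-positive samples in green to the left of GFP-minus samples in purple. Points are single arrays, bars give the mean and SD of 3 arrays, and the dotted line is the lowest value. All GFP-positive points lie above all GFP-minus points of the same gene, the triangle of GFP-minus replicate 3 is the highest GFP-minus point of each gene, and *opn1mw2* has the widest GFP-minus spread (SD 3.15).

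The calls depended on single arrays. The direction could not, since the arrays of the populations did not overlap for any member. The difference of each member was positive with any 1 array left out, but the number called was 1, 1 and 6 without GFP-minus replicate 1, 2 or 3, and 0 without GFP-positive replicate 1, 2 or 3. Calls fell over the whole array too. Of all probe sets, 1.66%, 0.813% and 1.65% were called higher without GFP-minus replicate 1, 2 or 3, against 2.99% with all arrays. Without GFP-positive replicate 1, 2 or 3 these shares were 2.08%, 0.922% and 0.664%. The call of *opn1mw2* was made without GFP-minus replicate 3, where its difference reached 9.74 (limma adjusted p = 0.00961). Over the cases with 1 array left out and the other alternatives, the adjusted p of *opn1mw2* was between 0.00173 and 0.211. Without the same array the differences were 8.85 for *opn1sw1*, 7.71 for *opn1sw2*, 5.81 for *opn1mw1*, 8.48 for *opn1mw4* and 8.61 for *opn1lw1*. The differences of *opn1sw1*, *opn1mw2*, *opn1mw4* and *opn1lw1* ranked 2, 3, 4 and 6 from the top of all 15502, and those of *opn1sw2* and *opn1mw1* ranked 12 and 27.

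**Figure D2:**
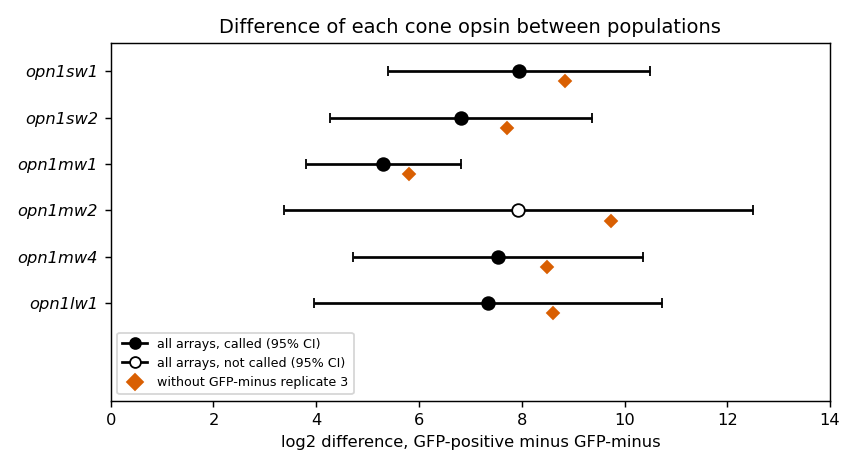
Log2 difference of each cone opsin, GFP-positive minus GFP-minus (horizontal axis), with the 95% confidence interval from limma over all arrays. Filled circles are called and the open circle, *opn1mw2*, is not, and orange diamonds give the difference without GFP-minus replicate 3, each to the right of the circle of its gene.

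By rank within the array, 5 members were among the most intense probe sets of GFP-positive cells. In GFP-positive replicates 1, 2 and 3, *opn1sw1* ranked 36, 31 and 22 from the top of 15502, and *opn1sw2* ranked 32, 81 and 34. For *opn1lw1* the ranks were 80, 183 and 84, for *opn1mw2* 71, 168 and 138, and for *opn1mw4* 104, 312 and 157. The gene *opn1mw1* stood apart at ranks 1013, 1580 and 2102. In GFP-minus replicates 1, 2 and 3, by contrast, *opn1sw1* ranked 6711, 8750 and 3899, and *opn1mw2* ranked 9734, 11297 and 2834. The highest rank of any member in a GFP-minus sample was 2703, for *opn1sw2* in replicate 3. A rank also depends on the binding of each probe set, so the order of the genes is not an order of their transcript numbers.

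Within the GFP-positive population, the arrays ranked differently for different opsins. The highest GFP-positive array was replicate 1 for the green opsins *opn1mw1*, *opn1mw2* and *opn1mw4*, but replicate 3 for *opn1sw1*, *opn1sw2* and *opn1lw1*. The lowest was replicate 2 for *opn1sw2*, *opn1mw2*, *opn1mw4* and *opn1lw1*, replicate 1 for *opn1sw1* and replicate 3 for *opn1mw1*. The range over the arrays was 1.08 for *opn1mw1*, 1.00 for *opn1mw4* and 0.55 for *opn1sw1* on the log2 scale. The median GFP-positive SD of the members, 0.392, was larger than that of all probe sets, 0.195. In GFP-minus cells the arrays kept the same order for all 6 members, highest in replicate 3 and lowest in replicate 2. Among all 11413 probe sets with distinct values on these arrays, 11.6% had that order, as did 12 of 18 measured genes of cone phototransduction. The GFP-minus SD exceeded the GFP-positive SD for 6 of 6 members and for 44.0% of all probe sets, and its median over the members was 1.82, against a GFP-positive median of 0.392.

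The ratio between spectral types was followed as the log2 difference of a pair of opsins within each array. The size of such a difference includes the unequal binding of the probe sets, so only its change between samples was read. For the ultraviolet opsin against the blue opsin (*opn1sw1* minus *opn1sw2*), it was -0.02, 0.68 and 0.25 in GFP-positive samples, against -0.83, -0.86 and -0.80 in GFP-minus samples. The ratio of these genes was thus nearly constant over the GFP-minus arrays (SD 0.03), on which *opn1sw1* itself ranged over 3.49 on the log2 scale. That was the smallest GFP-minus SD of the 15 pairs, while in 12 of them the GFP-minus SD was larger than the GFP-positive SD. The ratio was 1.13 higher in GFP-positive samples, without overlap. Of all pairs of probe sets 36.4% had no overlap, in either direction. For the blue against the red opsin (*opn1sw2* minus *opn1lw1*), which are neighbours on the chromosome, it was 0.63, 0.70 and 0.75 in GFP-positive samples, with the smallest GFP-positive SD of all pairs (0.06). In GFP-minus samples it was 1.62, 1.57 and 0.46, so that the populations overlapped in that ratio.

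Of the 15 pairs, 6 had within-array differences that did not overlap between the populations, and 4 of these involved *opn1mw1*. Among all pairs of the 15502 probe sets 36.4% did not overlap, so a count of 6 is near the background, and pairs that share a gene are not independent. Against *opn1sw1* (*opn1sw1* minus *opn1mw1*) the difference was 3.51, 4.25 and 5.14 in GFP-positive samples, against 1.85, 0.69 and 2.46 in GFP-minus samples. This change of 2.64 was the largest of all pairs. Against *opn1mw4*, a green opsin of the same gene row (*opn1mw1* minus *opn1mw4*), it was -2.71, -2.26 and -3.58 in GFP-positive samples, against -0.94, 0.57 and -1.48 in GFP-minus samples, a change of -2.24. The changes against *opn1sw2* (*opn1sw2* minus *opn1mw1*) and *opn1lw1* (*opn1mw1* minus *opn1lw1*) were 1.51 and -2.03. The remaining pair was *opn1sw2* minus *opn1mw4*, at 0.82, 1.31 and 1.31 in GFP-positive samples, against 1.74, 2.11 and 1.78 in GFP-minus samples.
For each of the 6 pairs the exact permutation test gave p = 0.1 (two-sided), which became 0.25 after Benjamini-Hochberg adjustment over the 15 pairs, and no pair could pass the threshold with 3 arrays against 3. On GFP-minus arrays *opn1mw1* lay only 1.14 to 2.86 above the lowest value of the array, which bounds how far its measured difference could extend. In GFP-minus replicate 2, *opn1mw4* and *opn1lw1* lay 0.57 and 1.12 above that value, so their pairs share this limit. No pair with *opn1mw2* was among the 6. Without GFP-minus replicate 3, the number of pairs without overlap was 12. Fewer arrays make such a separation easier for any pair, and no share over all pairs is given for that case, so the rise was not read.

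**Figure D3:**
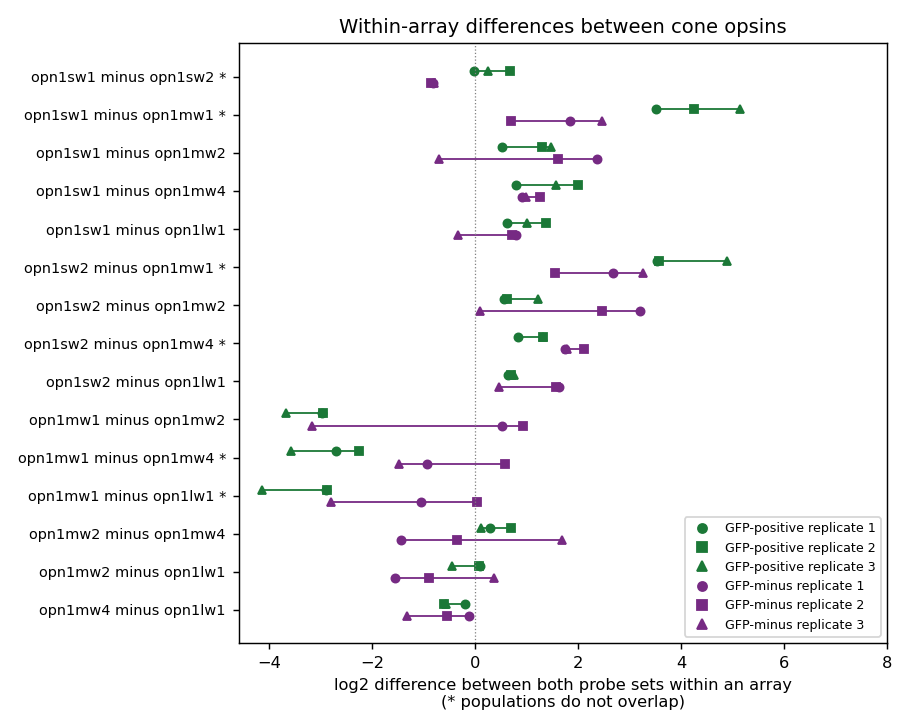
Log2 difference between both probe sets of each of the 15 pairs within an array (horizontal axis), with GFP-positive arrays in green above GFP-minus arrays in purple and lines spanning the 3 arrays. The 6 pairs with an asterisk do not overlap between the populations, and the GFP-minus points of *opn1sw1* minus *opn1sw2* nearly coincide, between -0.86 and -0.80.

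The opsin signal left in GFP-minus cells was a small share of the GFP-positive level, and it differed between replicates. Taken on the linear scale as a percentage of the geometric GFP-positive mean, its median over the 6 members was 0.485% in GFP-minus replicate 1, 0.149% in replicate 2 and 3.32% in replicate 3. The lowest value of the arrays sets a floor for each share, which was 0.703% for *opn1mw1* and between 0.0357% and 0.0974% for the others, so the order of the members was not read. In replicate 1 the shares lay between 0.155% and 2.04%, and in replicate 2 between 0.0886% and 1.55%. The lowest share in replicate 2 was that of *opn1mw2*, whose floor was 0.0761%. In replicate 3 the share was 1.42% for *opn1sw1*, 1.97% for *opn1mw4*, 3.06% for *opn1sw2* and 3.59% for *opn1lw1*. It was 4.97% for *opn1mw2* and 5.09% for *opn1mw1*.
The ratio of replicate 3 to replicate 1 was 3.82-fold for *opn1sw1*, 3.76-fold for *opn1sw2*, 3.64-fold for *opn1mw4* and 8.39-fold for *opn1lw1*. For *opn1mw1* and *opn1mw2* no such ratio is given, since in replicate 1 they lay only 1.54 and 1.02 above the lowest value on the log2 scale. The transducin gene *gnat2*, whose promoter drives EGFP, was read at its more intense probe set. It had 0.999% in replicate 1, 0.983% in replicate 2 and 6.37% in replicate 3, a 6.37-fold ratio of replicate 3 to replicate 1. These shares compare single arrays and carry no test. Subtracting the lowest value of the array first gave medians of 0.401%, 0.0869% and 3.27% in GFP-minus replicates 1, 2 and 3, and under the hybridization-control scaling the median in replicate 3 was 6.83%.
Other photoreceptor transcripts were also highest in GFP-minus replicate 3. The 10 measured rod genes were all highest there among the GFP-minus samples, with a summed linear signal of 67942, against 31140 in replicate 1 and 37150 in replicate 2. Of all probe sets with distinct values on these arrays, 31.2% were highest in replicate 3, as were 16 of 18 cone phototransduction genes. The 16 leukocyte genes summed to 59224 in that replicate, between 50989 in replicate 1 and 72605 in replicate 2. A highest sum in replicate 3 was not limited to photoreceptor genes. In GFP-minus replicates 1, 2 and 3 the erythrocyte genes summed to 48755, 58340 and 63602, and the bipolar genes to 3526, 5849 and 6512. The sums of amacrine and horizontal and of ganglion cell genes were highest in replicate 1, and that of Müller glia genes in replicate 2. In GFP-positive samples the rod sum was between 90491 and 117564 and the leukocyte sum between 3185 and 7054. What part these cells had in the opsin signal was not tested.

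**Figure D4:**
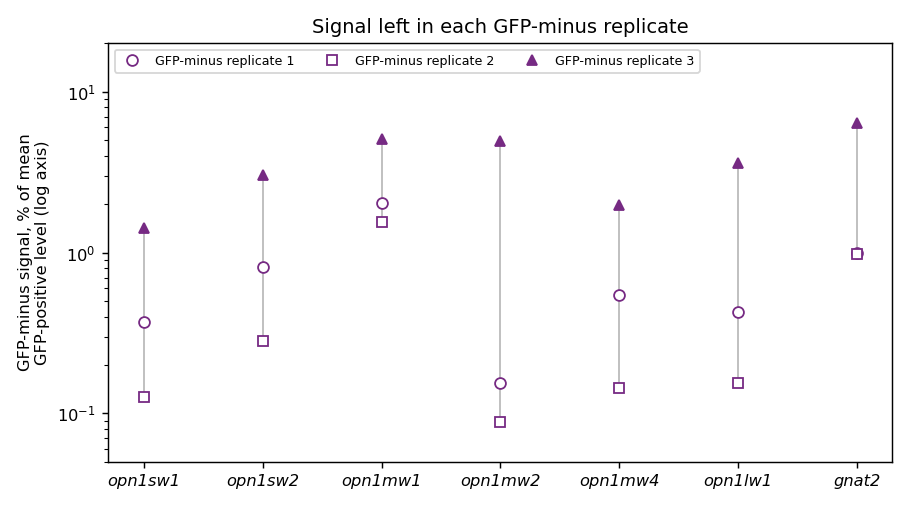
Signal of each cone opsin and of *gnat2* in each GFP-minus replicate as a percentage of its mean GFP-positive level (vertical axis, logarithmic). The filled triangle of replicate 3 is the highest point for every gene, between 1.42% and 6.37%, and the lowest point, 0.0886% for *opn1mw2* in replicate 2, is close to the floor of 0.0761% that the lowest array value sets for that gene.

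The partners of the opsins in the cone cascade were high in the same samples. Of 18 measured genes of a cone phototransduction list, limma called 12 higher in GFP-positive cells and 0 lower, beside 2.99% of all probe sets called higher. At an unadjusted p under 0.05, 16 were higher and 0 lower, a threshold for which no share of all probe sets is given here. The 6 uncalled genes were the guanylate cyclase genes *gucy2d* and *gucy2f*, *rgs9bp* and *gnb5b*, whose products work with RGS9, and *rgs9b* and *unc119b*. The median difference of the list was 5.34 on the log2 scale, against 0.01 over all probe sets, and that of every member but *opn1mw1* was larger. The called genes included the transducin subunit genes *gnat2*, *gnb3b*, *gngt2a* and *gngt2b* and the phosphodiesterase genes *pde6c*, *pde6ha* and *pde6hb*. The others were *rgs9a*, which speeds the shut-off of transducin, *guca1c*, an activator of guanylate cyclase, the calcium sensors *rcvrn2* and *rcvrn3*, and the transducin-binding phosducin gene *pdcb*.
The γ subunit gene *gngt2a* lay at 10.91, 9.60 and 10.31 in GFP-positive samples, against 3.67, 3.16 and 3.79 in GFP-minus samples. Its GFP-minus values were close to one another, unlike those of the opsins, but they also lay near the floor of 2.17, where dim values collect. The difference of *gngt2a* was 6.74 (standard error 0.40, limma adjusted p = 0.00489) and held its call with any 1 array left out. The differences were 7.07 for *pdcb*, 7.06 for *gngt2b* and 6.67 for *pde6c*, the catalytic phosphodiesterase subunit. For the more intense of 2 *gnat2* probe sets the values were 12.56, 12.94 and 13.15 in GFP-positive samples, against 6.24, 6.21 and 8.91 in GFP-minus samples. Its call held in 1 of 6 cases with 1 array left out. The dimmer *gnat2* probe set lay at 7.63, 9.80 and 11.19 in GFP-positive samples, against 2.42, 3.01 and 5.18 in GFP-minus samples. Its difference was 6.00, and it was not called (limma adjusted p = 0.0689). With 1 array left out, the count of called genes in this list was 5, 3 and 3 without GFP-positive replicate 1, 2 or 3, and 7, 6 and 12 without GFP-minus replicate 1, 2 or 3. Between 0.664% and 2.08% of all probe sets were then called higher.

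Of a list of 39 opsin genes outside the cone classes only 4 were measured, of which 0 were called in either direction by limma, while without adjustment *exorh* alone had a p under 0.05. The pineal opsin gene *exorh* lay at 2.33, 2.34 and 2.40 in GFP-positive samples, against 2.27, 2.27 and 2.27 in GFP-minus samples. The gene *valopa*, which encodes an opsin of the deep brain and inner retina, lay between 2.29 and 2.35 on all arrays, so both genes were close to the lowest value. The melanopsin gene *opn4.1* lay at 2.20, 2.70 and 3.11 in GFP-positive samples, against 2.20 on each GFP-minus array. The gene *rgrb*, of the retinal G protein-coupled receptor group, lay at 4.96, 3.76 and 4.00 in GFP-positive samples, against 3.67, 3.53 and 3.62 in GFP-minus samples (limma adjusted p = 0.395). The rod opsin gene *rho* was not analysed here.

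Several transcription factors set which opsin a cone expresses. In zebrafish, *six7* acts with *six6* genes in the expression of green and blue opsins, *thrb* encodes the thyroid hormone receptor needed for red cones, and *tbx2b* favours ultraviolet cones over rods. Of 41 measured genes on a list of such factors, limma called 6 higher and 2 lower and left 33 uncalled, beside 2.99% and 4.69% of all probe sets. The median difference was 0.27, against 0.01 over all probe sets.
The most separated gene was *six7*, at 9.32, 9.78 and 9.38 in GFP-positive samples, against 3.05, 3.02 and 3.42 in GFP-minus samples. Its difference was 6.33 (standard error 0.18, limma adjusted p = 0.0019), and it held its call under all 12 alternatives. A further *six7* probe set stayed between 2.17 and 2.25 on all arrays, at or near the lowest value. The SD of *six7* over the GFP-minus arrays was 0.22, against 0.90 to 3.15 for the opsins. Its values there lay close to the floor of 2.17, where dim values collect, so these SDs were not read as a contrast.
The gene *thrb* had 4 probe sets, of which the most intense lay at 7.78, 7.97 and 8.33 in GFP-positive samples, against 5.42, 4.65 and 4.34 in GFP-minus samples. Its difference was 3.23 (standard error 0.34, limma adjusted p = 0.0143). The other 3 probe sets had differences of 0.47, 1.17 and 1.74 and were not called, and the call of the most intense one held in 3 of 6 cases with 1 array left out.
The nuclear receptor genes *nr2f6b* and *nr2f1b* were 3.55 and 2.48 higher, the zinc finger gene *sall1a* was 3.32 higher and *neurod1*, a factor of photoreceptor development, was 1.16 higher. The lower genes were *mafbb*, whose mammalian counterpart acts in macrophages, with a difference of -3.96, and *lrrfip1a* with -2.42, for which a dimmer probe set was called in the other direction with 1.57 (limma adjusted p = 0.0314). With 1 array left out, 1 to 4 factors were called higher and 0 to 1 lower. Of all 15502 probe sets, 0.664% to 2.08% were then higher, and 214 to 740 probe sets were lower.

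**Figure D5:**
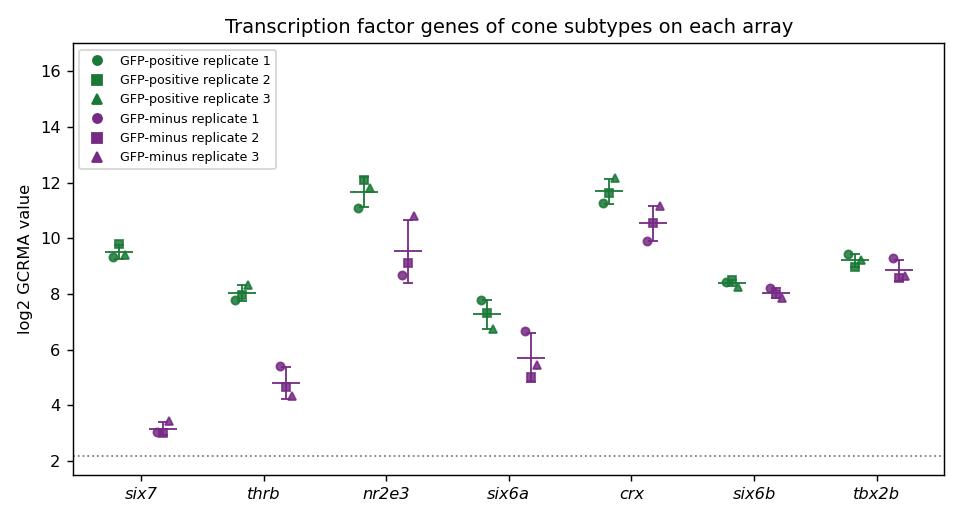
Log2 GCRMA values (vertical axis) of 7 transcription factor genes on each array, with GFP-positive samples in green to the left of GFP-minus samples in purple. Bars give the mean and SD of 3 arrays, and the dotted line is the lowest value. The arrays of *six7* and *thrb* are far apart between the populations, and those of *tbx2b* overlap. For *six6b*, *six6a*, *crx* and *nr2e3* the lowest GFP-positive array is only 0.05 to 0.26 above the highest GFP-minus array.

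Other factors with known roles in photoreceptors, picked for those roles with their values known, did not pass the test with the values as deposited. The gene *tbx2b* lay at 9.42, 8.97 and 9.22 in GFP-positive samples, against 9.28, 8.59 and 8.66 in GFP-minus samples, with overlap. Its difference was 0.36 (limma adjusted p = 0.498). The genes *six6a* and *six6b* had differences of 1.57 and 0.37, *crx*, a homeobox factor of photoreceptors, had 1.16, and *nr2e3*, a nuclear receptor of rods, had 2.14. For *nr2e3* the GFP-minus values were 8.66, 9.10 and 10.82, again highest in replicate 3. With median centring, limma called *crx* (adjusted p = 0.0353), *nr2e3* (0.0340), *six6a* (0.0444) and *six6b* (0.0340), and *nr2e3* was also called with the filter on dim probe sets (0.0383). Median centring called 39.7% of all probe sets higher, and the dim filter 9.56% of those it kept, so such calls say little about single genes. Over all alternatives the adjusted p of these 4 genes ranged up to 0.463, and *tbx2b* was called in none.

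The supply of chromophore to the opsins and the outer segment were covered together by a list of 17 measured visual cycle and outer segment genes. Its counts therefore do not describe chromophore supply alone. Of the list, limma called 2 higher and 1 lower and left 14 uncalled, beside 2.99% and 4.69% of all probe sets. At an unadjusted p under 0.05 the counts were 7 higher and 1 lower, again without a share of all probe sets to set beside them. The higher ones were the retinaldehyde-binding protein gene *rlbp1a* at a difference of 1.31 and *rbp4l*, which encodes the secreted retinol-binding protein purpurin, at 1.28. The retinol carrier gene *rbp4* was lower by a difference of -1.41. These differences were small beside those of the opsins, and neither higher gene was called under the hybridization-control scaling. The call of *rbp4* was lost whichever array was left out.

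The genes whose values followed the opsins most closely were found by Pearson's correlation with the mean of the 6 members over the 6 arrays, as a description, among 1486 named probe sets with a range of at least 2 on the log2 scale. The 5 highest were *gatd3l* (r = 0.999), *unc119a2* (0.998), *kcnb2a* (0.998), *gnb3b* (0.997) and *lactbl1a* (0.996). All arrays share the division into populations, so that 112 of the 1486 had r above 0.95. The gene *gatd3l* lay at 13.76, 13.39 and 13.58 in GFP-positive samples, against 5.48, 3.78 and 7.61 in GFP-minus samples. Genes picked by correlation on these arrays tend to share the opsins' order of GFP-minus arrays, so that order was not read. The gene *unc119a2*, of a family of chaperones for lipid-modified proteins such as transducin α, had a smaller range, at 10.81, 10.66 and 10.88 in GFP-positive samples, against 8.02, 7.72 and 9.13 in GFP-minus samples. The potassium channel gene *kcnb2a* lay at 12.27, 12.14 and 12.33 in GFP-positive samples, against 9.64, 8.93 and 10.51 in GFP-minus samples. Among the members, the correlation with the mean of the other members was lowest for *opn1mw2* (0.983) and *opn1mw1* (0.984) and highest for *opn1sw2* and *opn1lw1* (both 0.998).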

How the data were processed

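Gene expression of 3 GFP-positive and 3 GFP-minus sorted samples was measured on 1 Affymetrix array each. The authors deposited log2 values per probe set, made with GCRMA according to the submitters' processing notes, whose version the sources used here do not give. GCRMA subtracts background by probe sequence and normalizes between arrays, so dim values collect near a shared lowest value and differences against them depend on this step. No further normalization was applied in the main comparison. The number of arrays, 3 per population, limits the precision. The labels call the samples biological replicates but do not tie a replicate number to particular fish, and p-values measure the spread between these samples.

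The 115 Affymetrix control probe sets among 15617 were excluded. Names came from the platform annotation, with 10795 probe sets carrying 1 symbol, 135 several and 4572 none, and 10711 matched RefSeq by gene identifier (1 symbol updated). Coordinates are not shown because the build behind the values is unknown, and sequences are not shown.

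Populations were compared with limma 3.58.1 (lmFit, eBayes; R 4.3.3). Two-sided p-values were adjusted by Benjamini-Hochberg over the 15502 probe sets and called at 0.05. The procedure was tested on simulated data. Pairs of members were compared with an exact permutation test (scipy 1.17.1). For a gene with several probe sets, lists used the one with the highest mean. The gene lists were those of cone phototransduction, other opsins, transcription factors, visual cycle, rods, leukocytes, erythrocytes, Müller glia, bipolar, amacrine and horizontal, retinal ganglion and pigment epithelium cells. Named genes were the members, *gnat2*, up to 4 called members with the largest difference in each list a result turned on, and the 5 genes most correlated with the members. Members and lists were chosen with earlier results of these data known. Alternatives were a replicate block, a filter on dim probe sets (mean under 4), quantile normalization, median centring, scaling to 18 hybridization-control probe sets, an intensity trend with a robust prior, subtraction of the lowest value, and leaving out each array. Figures were drawn with matplotlib 3.10.9.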

Additional observations from a re-analysis of the deposited data

How the results depend on the processing

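The direction of all 6 cone opsins was the same under each of the 12 alternatives. With an array left out it was fixed in advance, since the populations did not overlap. The replicate block, dim filter and intensity trend leave each difference unchanged. The number called higher was 6 with the dim filter, median centring and hybridization-control scaling, beside 9.56%, 39.7% and 1.26% of all probe sets tested. It was 5 with quantile normalization and with the intensity trend, beside 4.38% and 2.68%. With 1 array left out the number was between 0 and 6, beside 0.664% to 2.08%. The sources do not say whether replicate numbers pair the samples, and they were treated as unpaired: deviations from the population means correlated at 0.55, 0.06 and 0.27 for replicates 1, 2 and 3, and only the samples of replicate 1 correlated best with their own number. With the replicate block, 0 opsins were called, 5 of the cone phototransduction genes, 1 transcription factor higher and 0 visual cycle genes higher, beside 1.25% of all probe sets. Taken by replicate number, 7 of the 15 pairs changed the same way in all 3 replicates. No share over all pairs of probe sets is given for that count and the pairs share genes, so it was not read.

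With median centring 2 of 4 other opsins, 20 of 41 transcription factors and 9 of 17 visual cycle genes were called higher, beside 39.7% of all probe sets. That setting called 4 factors lower. With hybridization-control scaling 6 factors were lower and 0 visual cycle genes higher, the opsin signal left in GFP-minus replicate 3 was 6.83%, and the uncalled differences of *tbx2b* and *six6b* became -0.38 and -0.37. That scaling moves each probe set by the same -0.737, so any smaller positive difference changes sign by construction. The intensity trend left 1 visual cycle gene higher. With 1 array left out, counts were 3 to 12 for cone phototransduction, 1 to 4 higher and 0 to 1 lower for the factors, 0 to 3 higher and 0 lower for the visual cycle, and 6 to 12 for the pairs. For the pairs, leaving out an array makes separation easier, and no share over all pairs is given for it. Centring and control scaling cannot change a within-array pair. Each gene had 1 probe set in the pairs, so using all probe sets changed nothing. Over all probe sets, 837 were higher and 1040 lower with the dim filter, 6151 and 1102 with median centring, 195 and 3251 with control scaling, 194 and 256 with the replicate block, and 103 to 323 and 214 to 740 with 1 array left out. Signal left in GFP-minus replicates 1, 2 and 3 was 0.404% to 0.536%, 0.128% to 0.164% and 2.86% to 3.71% with 1 GFP-positive array left out. The cause of the other changes was not tested.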
